A study of Bos taurus with 2 samples.

Results

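The genes examined in bovine muzzle tissue were 9 in common use as references for real-time RT-PCR: ACTB, HPRT1, YWHAZ, PPIA, PPIB, TBP, GUSB, TFRC and POLR2A. They were chosen by name as a set of such references, and their probes were found through the RefSeq accession that each probe carries. Of the 9 genes, 7 had at least 1 probe, with 19 probes among 43639 on the array and 7 symbols among the 9647 that the RefSeq table named. TFRC and POLR2A had no probe under these accessions and were not analysed here. The RNA came from 1 light-muzzle (labelled Yellow) and 1 dark-muzzle (labelled Black) female HanWoo, a native Korean breed, both 30 months old and neither given any treatment that the labels name. The study's methods give 1 representative cow per colour, a medium-dark class for the dark animals and the front of the muzzle as the piece taken, and each RNA was read alone with Cy3 on 1 array of the same slide. With 1 array per group there is no test and no replicate check, each difference is one between 2 animals, and precision is limited by having so few arrays.

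A reference gene is meant to hold the same level in every sample, so that a target gene can be expressed relative to it. The genes used for this are drawn from work that all cells do: the actin cytoskeleton, purine salvage, protein folding, signalling adaptors, lysosomal breakdown, iron uptake and transcription itself. Their levels can still differ between tissues, since muscle, secretory and epithelial cells use these functions to different degrees. In a piece of tissue, fewer cells of a type and less RNA per cell cannot be told apart.

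Values are processed signals, an intensity from which the scanner software has removed the background. A log2 level is the log2 of that intensity minus the 75th percentile of the array, which was 1144 for the light-muzzle and 1137 for the dark-muzzle array. A log2 ratio is the level of the dark-muzzle cow less that of the light-muzzle cow. The software also gives each spot an error from its own model, which covers the spot and not the animal. Carried to the log2 ratio, this error was between 0.20 and 0.25 for the 19 probes. Probes of the same transcript differed by a median SD of 0.18 over 7661 transcripts. Spots of the same probe differed by a median SD of 0.049, over only 36 probes that were each spotted at least 4 times. Levels of different probes cannot be set against each other, because each probe binds with its own strength.

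Each of the 19 probes passed the background test of the software in both animals, and 0 were marked as outliers. Of these, 9 had a log2 ratio above 0 and 10 below it. A ratio larger than the model error was found for 8 probes and larger than 2 errors for 4, from ACTB, HPRT1 and PPIB. Within 1.2-fold lay 14 of the 19 probes, against 37.7% of all 33451 probes measured in both cows. At least 2-fold apart was 1 probe of ACTB, or 5.26% of the 19, where 15.2% of all measured probes were at least 2-fold apart (8.43% higher and 6.8% lower in the dark-muzzle cow). The median absolute log2 ratio was 0.17 over the 19 probes and 0.37 over all measured probes. At a threshold of 1.5-fold the count was 2 probes, from ACTB and HPRT1, with 32.2% of all measured probes past it.

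**Figure D1:**
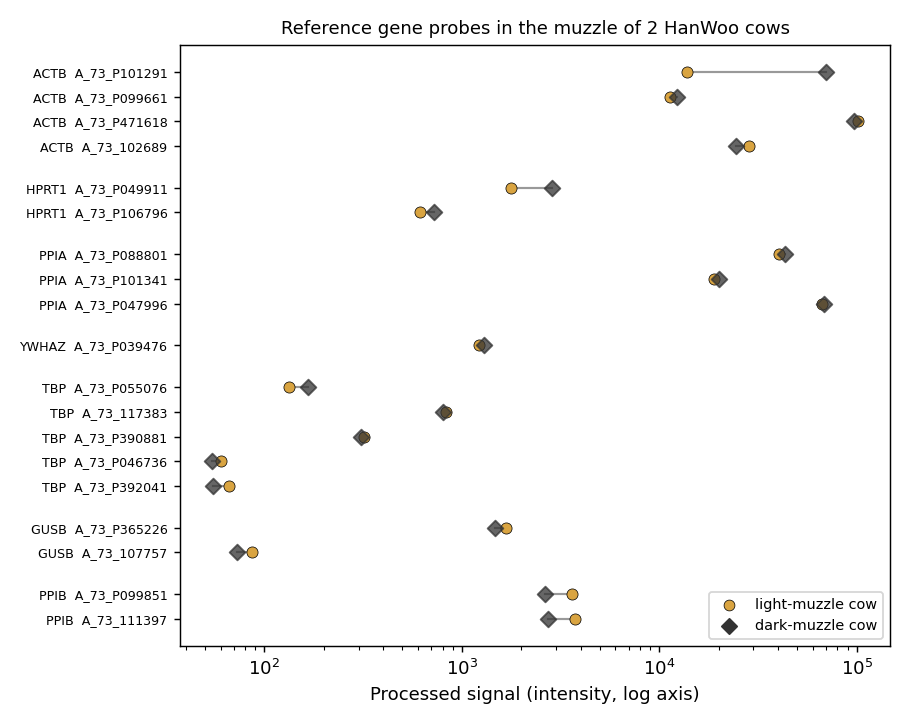
Processed signal (intensity, log axis) of each of the 19 probes of 7 reference genes, with the light-muzzle cow as a circle and the dark-muzzle cow as a diamond. Only ACTB probe A_73_P101291 moved by more than 2-fold, from 13897 to 69971, and positions of different probes along the axis are not comparable.

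Taken as gene means over their probes, the 7 genes had log2 ratios from -0.45 for PPIB to 0.55 for ACTB, and 0 of 7 were at least 2-fold apart (15.2% of the 8508 genes measured in both cows were, 9.12% higher and 6.1% lower). Their median was 0.081 and their SD 0.36, while the median over all measured genes was 0.055. TBP, YWHAZ and PPIA lay nearest to 0, and PPIB, HPRT1 and ACTB farthest from it. The place of ACTB rested on 1 probe, A_73_P101291, without which its mean was -0.044, among the nearest. In the order PPIB, GUSB, TBP, YWHAZ, PPIA, HPRT1 and ACTB, the steps between TBP and YWHAZ (0.11), YWHAZ and PPIA (0.00022), HPRT1 and ACTB (0.074) and GUSB and TBP (0.17) were smaller than the model error of a probe. A step between 2 genes carries the error of both. The step between PPIB and GUSB, 0.25, lay within the range of model errors. That between PPIA and HPRT1, 0.40, was smaller than the 0.46 between the 2 HPRT1 probes. Of the 21 pairs of genes, 6 differed by less than 1.2-fold, and the widest pair, ACTB and PPIB, differed by 2.01-fold. Without A_73_P101291 the widest pair was HPRT1 and PPIB, at 1.91-fold.

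**Figure D2:**
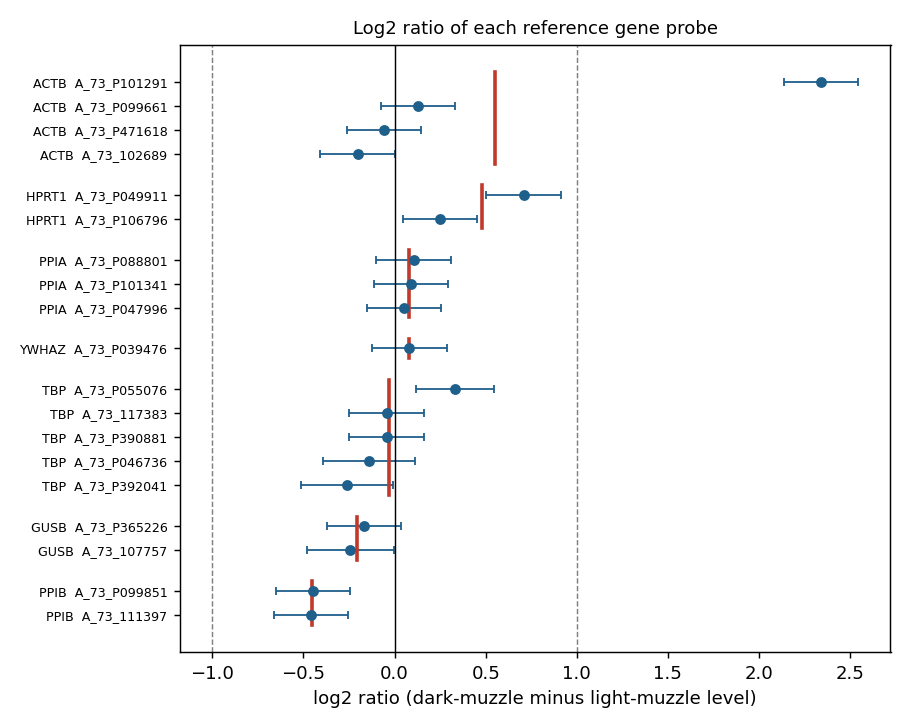
Log2 ratio of each probe, dark-muzzle minus light-muzzle level, with the error from the scanner software's model as a bar and the mean of each gene as a red line; dashed lines mark 2-fold. The probes of PPIA and PPIB lie close together, while those of ACTB range from -0.20 to 2.34.

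ACTB encodes cytoplasmic beta-actin, the filament protein of the cortex and of moving and dividing cells, and its probes disagreed. A_73_102689 read 28394 in the light-muzzle and 24518 in the dark-muzzle cow, with a log2 ratio of -0.20. A_73_P471618 read 101916 and 97330, a ratio of -0.058. A_73_P099661 read 11378 and 12375, a ratio of 0.13. These 3 probes had nearly the same level in both cows, with a mean ratio of -0.044 ± 0.17 (SD over 3 probes), none of them beyond the model error. The remaining probe, A_73_P101291, read 13897 in the light-muzzle and 69971 in the dark-muzzle cow, which is 5.06-fold and a log2 ratio of 2.34.

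This ratio was 11.5 times its model error, and 1.89% of all measured probes had a ratio at least as high. The 4 probes carry the same accession, NM_173979, and spanned 2.54 on the log2 scale. Of 690 transcripts with 4 measured probes, 24 (3.48%) spanned as much, and the median span was 0.46. In the median pixel brightness, before any correction, the ratio of this probe was 2.37. The 59 measured spots around it, within 4 rows and columns, had a median ratio of -0.022. Over the 19 reference probes such medians ran from -0.092 to 0.24. They were 0.24 around ACTB probe A_73_102689, 0.21 around PPIB probe A_73_P099851 and 0.18 around GUSB probe A_73_107757. The ACTB mean of 0.55 rested on A_73_P101291: without it the mean was -0.044, and the median over the 4 probes was 0.036.

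The other actins on the array ranged widely. ACTG1, the other cytoplasmic actin, had a mean log2 ratio of -0.035 over 6 probes, from -0.44 to 0.30. ACTA1, the actin of skeletal muscle, had one of 2.24 over 4 probes, from 1.66 to 2.88. ACTC1, the actin of heart and developing muscle, had 2.84 from probes at 2.82 and 2.87. ACTA2 of smooth muscle had 0.086 from 1 probe.

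The smooth muscle actin ACTG2 was also split, with A_73_115488 at -0.25 (1692 and 1410) and A_73_P099801 at 2.32 (8107 and 40324). The upper ACTB and ACTG2 probes thus had ratios inside the range of the ACTA1 probes, and the lower ones lay near ACTG1 and ACTA2. Of 6 actins, 3 were higher by 2-fold or more in the dark-muzzle cow (ACTA1, ACTC1 and ACTG2) and 0 lower. The ACTG2 mean of 1.03 lay near neither of its probes. The median of 0.79 lay between the means of ACTB and ACTG2, so it rested on these split probes. Over all genes with a ratio or a lower bound, 16.3% were at least 2-fold apart, 9.86% higher and 6.47% lower. The shares printed here are the background for each list below.

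Among proteins that bind actin and turn it over, 1 of 13 measured genes was at least 2-fold higher, CFL2, the cofilin of muscle, with a log2 ratio of 2.60. Its non-muscle counterpart CFL1 had -0.12, profilin 1 (PFN1) had -0.063 and the thymosin TMSB4X had -0.17. The lowest was ARPC1B, a subunit of the branching complex Arp2/3, at -0.45, the median was 0.054, and VIL1 was well above background in neither cow. Beside these values, all 11 markers of skeletal muscle with a probe were at least 2-fold higher, with a median ratio of 3.01 and a summed intensity of 739944 in the light-muzzle and 4295481 in the dark-muzzle cow. The lowest of them was ACTA1 and the highest MYH1, a fast myosin heavy chain, at 3.50. None of the 11 was below background. The part of muscle RNA in the ratio of the ACTB probe was not tested, and no probe sequence was compared.

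HPRT1 encodes the enzyme that returns hypoxanthine and guanine to the nucleotide pool. Both of its probes (NM_001034035) were higher in the dark-muzzle cow. A_73_P049911 read 1767 and 2869, a log2 ratio of 0.71 or 3.47 times its model error, and A_73_P106796 read 613 and 724, a ratio of 0.25. The gene mean was 0.48, or 1.39-fold, and it lay between 0.46 (50th percentile shift) and 0.71 (brighter probe) over the alternatives, some of which could not change it. The distance between the probes, 0.46, was nearly as large as the mean.

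In purine salvage and synthesis, 3 of 18 measured genes were at least 2-fold higher and 0 lower, with a median of 0.14. ADSS1, the adenylosuccinate synthase of muscle, had 1.85 from 1 probe (2718 and 9739), while ADSS2, its form in other tissues, had -0.16. PNP, the purine nucleoside phosphorylase that supplies HPRT1 with its bases, had 1.05 over 3 probes, and ATIC, which completes new purine synthesis, lay just past 2-fold. APRT, the parallel salvage enzyme for adenine, had -0.26. The lowest was IMPDH1, a step toward guanine nucleotides, at -0.74. HPRT1 lay between these ends, and the muscle markers given above rose in the same cow. Their part in its ratio was not tested.

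YWHAZ is a 14-3-3 protein, an adaptor that binds phosphorylated partners. It had 1 probe (NM_174814), which read 1225 in the light-muzzle and 1288 in the dark-muzzle cow. Its log2 ratio of 0.081 was 0.40 times the model error, and 12.6% of all measured probes had a smaller absolute ratio. Over the alternatives it lay between 0.061 and 0.31. With 1 probe, the spread between probes is unknown for this gene.

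All 7 members of the 14-3-3 family were measured. YWHAG alone was at least 2-fold higher, with a ratio of 1.23 from 1 dim probe (121 and 282), and 0 were at least 2-fold lower. SFN, the family member of stratified epithelium, had 0.35, YWHAE 0.14, YWHAB 0.16, YWHAH 0.040 and YWHAQ -0.21. The median was 0.14. Ratios were above 0 for 6 of 7, where 54.5% of all measured genes were above 0. It was 4 of 7 by the brightest probe of each gene and 5 of 7 by the median over probes. After a shift to the spike-in transcripts it was 7 of 7. Of those above 0, YWHAH, YWHAZ, YWHAE and YWHAB had ratios below 0.20, the lowest model error among the 19 reference probes.

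PPIA and PPIB are both cyclophilins, which speed the turning of proline bonds as proteins fold. PPIA works in the cytosol, and PPIB carries a signal peptide and works in the endoplasmic reticulum. The 3 probes of PPIA (NM_178320) read 66632 and 68659, 18979 and 20064, and 40374 and 43138, with log2 ratios of 0.052, 0.089 and 0.10. None exceeded its model error. The gene mean was 0.082 ± 0.027 (SD over 3 probes), the closest set of 3 or more probes among the reference genes, although the mean turned to -0.14 under quantile normalization.

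PPIB moved the other way. Its 2 probes (NM_174152) read 3761 and 2721, and 3628 and 2643, with log2 ratios of -0.46 and -0.45, each more than 2 model errors. The gene was at 0.73 of its light-muzzle level, and its ratio lay between -0.48 (quantile normalization) and -0.23 (shift to the spike-in transcripts) over the alternatives, some of which could not change it. The difference between PPIA and PPIB was 0.53 on the log2 scale, larger than the spread between the probes of either gene.

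Of 13 measured cyclophilins, 0 were at least 2-fold higher and 0 lower, and PPIB had the lowest ratio. PPID, a cyclophilin of chaperone complexes, had the highest at 0.88, PPIL1 of the spliceosome had 0.64 and PPIF, the form in mitochondria, had 0.50. PPIC, a further cyclophilin of the secretory pathway, had 0.33, on the other side of 0 from PPIB. The median was 0.13, and PPIL6 was well above background in neither cow.

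PPIB also works in a complex that hydroxylates prolines of collagen. P3H1, the hydroxylase of that complex, had a log2 ratio of -0.37, from probes at -0.67 and -0.077. P3H2 had -0.38, FKBP10 -0.54 and SERPINH1, the collagen chaperone, -0.22. With PPIB, 5 of 5 measured genes of the list were below 0 (4 of 5 after a shift to the spike-in transcripts), 0 reached 2-fold, and 45.5% of all measured genes were below 0. Beside them, 5 of 6 fibroblast markers were below 0, with a median of -0.53, a summed intensity of 688752 and 477646, and COL1A1 at -0.69. Among serous gland markers, 5 of 8 were at least 2-fold lower, with a median of -2.65 (STATH at its bound) and a summed intensity of 444735 and 43417. The other 3 were above 0, with BPIFA1 at 1.29, LPO at 0.57 and LYZ at 0.40. ODAM of this list was well above background in neither cow. The part of either cell type in the ratio of PPIB was not tested.

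GUSB encodes beta-glucuronidase, a lysosomal enzyme that removes glucuronic acid from glycosaminoglycans. Its probes (NM_001083436) read 1671 and 1478, and 86.5 and 72.7, with log2 ratios of -0.17 and -0.24. The former lay within its model error and the latter was 1.02 times it. The gene mean of -0.21 turned to 0.019 after a shift to the spike-in transcripts.

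Of 12 genes of glycosaminoglycan breakdown with a ratio or bound, 1 was at least 2-fold higher, HPSE, the heparanase, at 1.51 from 1 probe. Also 1 was lower: SPAM1, a hyaluronidase known from sperm, was lower by at least 2.78-fold in the dark-muzzle cow. This call rested on 1 dim probe of 4, A_73_P230882, which read 56.8 and 8.91 and passed background only in the light-muzzle animal, and the other 3 passed in neither. HYAL2 had 0.66, ARSB -0.74 and HEXA -0.49. The median was -0.090 with SPAM1 at its bound and 0.025 over the 11 genes measured in both cows. GUSB lay among the middle members of this list.

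TBP is the TATA-binding protein, the subunit by which TFIID marks a promoter. Its 5 probes (NM_001075742) read 833 and 804 (ratio -0.043), 319 and 308 (-0.044), 134 and 167 (0.33), 66.2 and 54.9 (-0.26), and 60.3 and 54.5 (-0.14). Only the probes at 0.33 and -0.26 exceeded their model errors. The gene mean of -0.031 ± 0.22 (SD over 5 probes) was the smallest of the 7 in size, and it turned to 0.014 under normexp background correction and to 0.19 after a shift to the spike-in transcripts. The lowest intensities called well above background were 20.8 and 20.3 on the 2 arrays.

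Of 17 measured genes of TFIID and TBP-dependent initiation, 0 were at least 2-fold higher and 1 lower, and the median was 0.022. The lower gene was TAF10, a TFIID subunit, whose probe read 48014 and 13671, a ratio of -1.80. TAF13 had 0.88 and TAF12 0.79, while GTF2B, which bridges TFIID to the polymerase, had -0.20 and TBPL1, a relative of TBP, -0.11.

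POLR2A, the catalytic subunit of RNA polymerase II, had no probe under the RefSeq accessions, but 11 genes of the polymerase list did. All 11 had ratios above 0 (9 of 11 under quantile normalization and by the brightest probe of each gene), where 54.5% of all measured genes were above 0. They ran from 0.022 for POLR2E to 0.98 for POLR2D, which had 1 probe, with 0 past 2-fold and a median of 0.25 (0.070 under quantile normalization). POLR2B, the other large subunit, had 0.050 from probes between -0.42 and 0.36. Probes of POLR2E and POLR2M also lay on both sides of 0. The ratios of POLR2E, POLR2B, POLR2G, POLR2M and POLR2F were below 0.20, the lowest model error among the 19 reference probes. POLR2K had 0.53 from probes at 0.052, 0.73 and 0.80.

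TFRC, the transferrin receptor that takes up iron, likewise had no probe under the RefSeq accessions. Of 13 measured genes of iron handling, 0 were at least 2-fold higher and 0 lower, with a median of -0.15. FTH1, the heavy chain of ferritin, had 0.77 over 6 probes between 0.66 and 1.02, whereas FTL, the light chain, had -0.15. TFR2, the second transferrin receptor, had 0.30, SLC40A1, the iron exporter, 0.22 (3 probes from -0.74 to 0.72) and HAMP, the hormone hepcidin, -0.88 from 1 probe. HFE was well above background in neither cow.

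**Figure D3:**
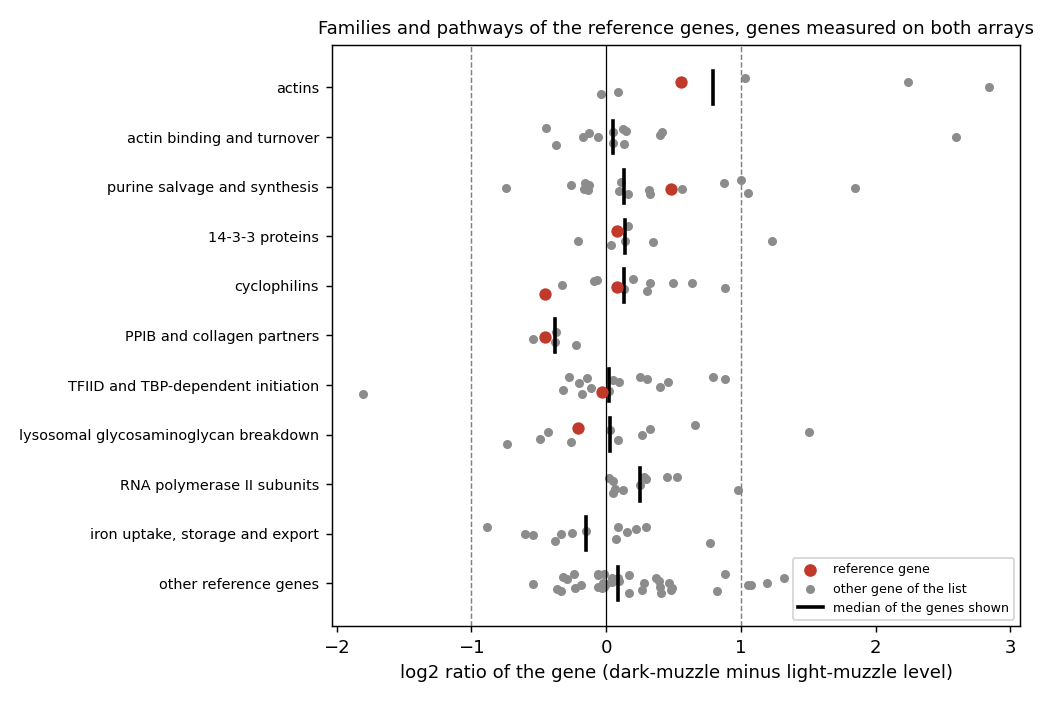
Log2 ratio (dark-muzzle minus light-muzzle level) of every gene measured in both cows in 11 gene lists, with the reference genes in red, other genes in grey and the median of each list as a black bar; dashed lines mark 2-fold. Actins reach 2.84, and PPIB is the lowest cyclophilin. All 11 genes of the RNA polymerase II list lie above 0 (9 of 11 under quantile normalization), some by less than the model error of a reference probe.

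Further genes in use as references were read for comparison, 37 with a measured ratio. Within 1.2-fold lay 17 of them (45.9%), against 4 of the 7 genes described here (TBP, YWHAZ, PPIA and GUSB) and 38.3% of all measured genes. Some ribosomal protein genes were among the nearest to 0, with RPL19 at 0.00019, RPLP0 at -0.015 and RPS18 at -0.020. Others lay farther from it, with RPS15A at -0.29, RPS26 at 0.27, RPS9 at -0.24 and RPS23 at -0.23. Past 2-fold, 4 of 37 were higher in the dark-muzzle cow and 0 were lower. These 4 were GAPDH (1.32, with 8 probes from 1.03 to 1.60) and PGK1 (1.05) of glycolysis, and SDHA (1.19) and CYC1 (1.08) of the respiratory chain. LRP10 had the lowest ratio, -0.54. The median was 0.089.

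Scaling to 1 gene subtracts its log2 ratio from the ratio of every probe, so the counts past 2-fold follow from that ratio alone and carry no further evidence on the gene. They are given as the size of the effect on a list of calls. The ratios were already centred, with a median of 0.0038 over all measured probes, so that any gene near 0 must leave the directions near balance. With the 75th percentile, 2820 of 33451 probes were higher and 2273 lower by 2-fold or more. Scaled to TBP, 2962 were higher and 2153 lower. Scaled to YWHAZ or PPIA, 2509 were higher and 2634 lower, and scaled to the mean of the 7 genes, 2539 and 2598.

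The genes farther from 0 moved the counts by construction. Scaled to ACTB, 1344 were higher and 6693 lower, and scaled to HPRT1, 1447 and 5656. Scaled to PPIB, the split turned to 6270 higher and 1164 lower, and to GUSB, to 3936 and 1649. Without A_73_P101291, ACTB gave 3019 higher and 2106 lower.

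GAPDH, which the study's methods name as the internal control for quantitation next to the cDNA synthesis, gave 648 higher and 23853 lower. The study normalized its arrays in GeneSpring, and its methods do not name GAPDH for that step. Tyrosinase (TYR), the enzyme that starts melanin synthesis and 1 of the study's targets, was named here after its values had been seen. The study also reports TYR as higher in dark-muzzle cows by real-time RT-PCR, on more animals than were read on the arrays. On these arrays TYR read 90.1 and 184 on 1 probe (log2 ratio 1.04) and 98.3 and 303 on the other (1.63). Its mean log2 ratio over both probes was 1.34 with the 75th percentile. The mean was 1.37 relative to TBP, 1.25 relative to PPIA, 1.79 relative to PPIB, 0.78 relative to ACTB and 0.014 relative to GAPDH. The mean thus passed 2-fold relative to TBP, YWHAZ, PPIA, PPIB and GUSB, and did not relative to HPRT1 or GAPDH. Read alone, the TYR probe with the lower ratio did not pass relative to YWHAZ or PPIA. The TYR probe with the higher ratio passed relative to HPRT1 and to the mean of all 4 ACTB probes. Relative to ACTB the call on the TYR mean turned on A_73_P101291. With all 4 ACTB probes the TYR mean did not pass, and without A_73_P101291 its ratio was 1.38, or 2.60-fold.

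**Figure D4:**
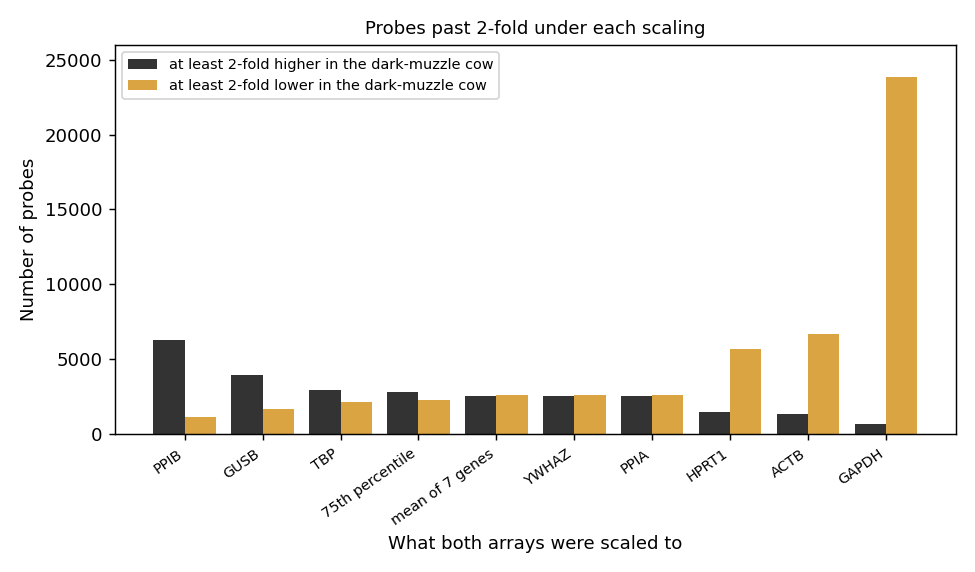
Number of probes past 2-fold, higher or lower in the dark-muzzle cow, when both arrays were scaled to each reference gene, to the mean of the 7 genes, to GAPDH or to the 75th percentile, ordered by the log2 ratio of the reference. Each pair of counts is set by the ratio subtracted (-0.031 for TBP, 1.32 for GAPDH, which gives 23853 lower probes) and shows nothing further about the gene.

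Across the series, 78.8% of noncontrol spots on the light-muzzle and 81.9% on the dark-muzzle array were well above background, and no noncontrol spot was saturated. The log2 ratios of the 8 spike-in transcripts with signal above background on each array ran from -0.38 to 0.019, with a median of -0.22, which is a shift that scaling to them would take out of every ratio. The tissue held epithelium, with all 7 keratinocyte markers that had a probe measured in both cows (3 at least 2-fold higher, 0 lower by as much, 4 below 0 including KRT5 at -0.52 and KRT14 at -0.41, median -0.18, summed intensity 1095648 and 1422102). Of 6 melanocyte markers, 4 were higher by 2-fold or more in the dark-muzzle cow, TYRP1 by its lower bound, with a summed intensity of 3167 and 6615. MITF had a log2 ratio of 0.86, and DCT, measured on 1 of its 2 probes, lay below 0 at -0.52.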

How the data were processed

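Total RNA of 2 muzzles was read on 1-colour Agilent bovine arrays, 1 per cow. The authors deposited the intensity of each spot from Agilent Feature Extraction 10.7.3.1, background-subtracted and detrended, and a log2 table per probe made in GeneSpring. Of its probes, 99.97% lay within 0.01 of the log2 values computed here, and its column medians were -2.47 and -2.45; it served as an alternative. The array design names Btau_3.1, while the RefSeq table is ARS-UCD2.0, so no coordinate is given.

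Groups came from the tissue colour in the labels. The log2 processed signal was shifted by the 75th percentile of 43803 noncontrol spots, 21 outlier spots were excluded, and repeated spots were averaged. Symbols came from RefSeq accessions for 20587 of 43639 probes (47.2%). A gene's ratio is the mean over probes well above background on both arrays, or its largest lower bound, the bright level against the higher of the detection limit and the dim level. No test or p-value was computed. The members and lists were chosen with earlier results of these data known. Named are all members with every probe, GAPDH, and from each list genes past 2-fold and the highest and lowest; other list genes were named after their values were seen. Alternatives were quantile, loess (span 0.3) and 50th percentile normalization, no shift, a shift to spike-in transcripts, normexp (offset 50) on median pixel signals, the deposited table, no dim filter, a floor, outliers kept, other summaries of probes, other thresholds and scaling to each gene. Tools were Python 3.11.15, numpy 2.4.6, pandas 2.3.3, R 4.3.3 and limma 3.58.1. The steps were tested on simulated data.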

Additional observations from a re-analysis of the deposited data

How the results depend on the processing

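The median over the 7 genes, 0.081, lay between -0.095 (quantile normalization) and 0.31 (shift to the spike-in transcripts), and their spread from highest to lowest between 0.93 and 1.17 over the alternatives, some of which could not change a given gene. The shift to the spike-in transcripts also moved the list medians to 0.31 (other reference genes), 1.02 (actins), 0.28 (actin binding), 0.36 (purines), 0.36 (14-3-3 proteins), 0.35 (cyclophilins), -0.15 (PPIB and collagen partners), 0.25 (TFIID), 0.13 (glycosaminoglycan breakdown), 0.073 (iron) and 0.48 (RNA polymerase II). By its construction it moves every ratio alike. Quantile normalization moved the RNA polymerase II median to 0.070, and the cause was not tested. The median over probes moved the actin median to 0.56, since it moved the ACTB value from 0.55 to 0.036. Without ACTB probe A_73_P101291, left out after its value was seen, 0 reference probes reached 2-fold. With every probe kept, 2 reached 1.5-fold, that ACTB probe and 1 of HPRT1. Scaling, which subtracts a constant, moved the counts of higher and lower probes to 1344 and 6693 (ACTB), 1447 and 5656 (HPRT1), 6270 and 1164 (PPIB), and 648 and 23853 (GAPDH). The share of all measured probes past 2-fold ran from 10.4% (normexp) to 21.1% (no filter on dim probes). Matching by a gene name column was not run, since the scanner output has no such column, and the mean pixel signal was replaced by the median. No paired analysis was possible because each group has 1 array. Signal over background limits TBP and the dimmer GUSB probe most.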

Other observations

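RPS26, a ribosomal protein gene sometimes used as a reference, had probes that disagreed in the way of ACTB. Of its 6 probes, 4 had intensities between 75592 and 153872 and log2 ratios between -0.35 and -0.20. The other 2 read 699 and 1740, and 702 and 1675, light-muzzle value first, with ratios of 1.32 and 1.26. All 6 carry the same accession, NM_001015561. The gene mean of 0.27 therefore lay between the groups of probes and near none of them.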
